A study of Mus musculus with 51 samples.

Results

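The early response of the C57BL/6 mammary gland (MG) to low-dose ionizing radiation was examined in 7 of the 51 arrays of the series. Virgin female C57BL/6 mice, 8 weeks old at the first exposure, received 4 weekly X-ray fractions of 7.5 cGy (the LD group, 4 arrays) or 4 sham exposures (the sham group, 3 arrays), and whole MG without its lymph node was taken 4 hr after the last one. All 22626 probe sets of the array were tested, and 11807 genes had at least 1 probe set with a single symbol. The other groups used here are C57BL/6 MG at 4 hr after 4 fractions of 1.8 Gy (HD, 4 arrays), C57BL/6 MG at 1 month after LD or sham exposure (4 arrays each), and BALB/c MG at 4 hr after LD or sham exposure (4 and 3 arrays).

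The array medians lay between 6.30 and 6.33 in LD and between 6.29 and 6.33 in sham (log2 values after RMA), and any pair of the 7 arrays correlated at 0.985 or more. The tissue carried transcripts of fat and of epithelium. Adipoq, the adipokine adiponectin, had log2 values of 13.68, 13.59, 13.54 and 13.77 in LD and 13.44, 13.60 and 13.58 in sham, and Krt19, a luminal keratin, had 11.70, 12.38, 12.27 and 12.20 in LD and 11.50, 12.15 and 12.07 in sham. Both groups overlapped for both genes. The LD arrays stood in columns 9 to 12 of the hybridization plate and the sham arrays in columns 1 to 3, so plate column and treatment cannot be told apart. Rows D, E and F each held 1 LD and 1 sham array, and within-row differences are therefore given for the leading genes. The arrays measure whole tissue, in which fewer cells of a type and less RNA per cell cannot be told apart.

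A cell that senses DNA breaks activates the kinase ATM and the transcription factor p53, and within hours p53 raises the transcripts of genes for cell cycle arrest, of its own inhibitor Mdm2 and of apoptosis genes. The MG of a virgin mouse is a tree of luminal and myoepithelial ducts in a pad of white fat, so genes of lipid handling make up a large part of what the array measures in it. In fat, feeding and insulin raise transcripts of lipid and sterol synthesis through the factors SREBP and ChREBP, and fasting raises others through FOXO and PPAR factors and glucocorticoids.

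Angptl8, a feeding-induced inhibitor of lipoprotein lipase, was the named gene with the lowest LD values relative to sham, at 3.36-fold lower, and on the other side B3galt2, a galactosyltransferase, was 2.06-fold higher. At the study's thresholds for LD, 0.58 on the log2 scale in either direction and an unadjusted p under 0.1, 55 genes (0.466%) differed, 25 higher (0.212%) and 30 lower (0.254%) in LD. Leaving out 1 array gave 48 to 110 genes, the most without LD replicate 1, and the count was 109 without LD replicate 3 or sham replicate 2 and 89 without sham replicate 3. The list of higher genes held Txnip, Angptl4, Klhl24 and Lpin2, and the list of lower genes held Mid1ip1, Ppp1r3c, Hk2, the sterol synthesis genes Sqle, Cyp51 and Mvd, and the interferon-induced genes Ifit3, Zbp1 and Rtp4. In 28 of the 55 genes the LD and sham arrays did not overlap, 20 higher and 8 lower. By limma 0 genes passed an adjusted p under 0.05, the smallest being 0.152, while 791 genes (6.7%) had an unadjusted p under 0.05. That share takes any probe set of a gene and so lies above the share of probe sets. Of the 22626 probe sets 1117 had such a p. By the brightest probe set 2.51% of genes were higher and 2.08% lower at that p. Over all genes, each by its brightest probe set, the share above 0 was 49.1%, and LD and sham arrays did not overlap in 5.18%, with 2.65% higher and 2.53% lower. Over all probe sets, log2 fold changes had a median standard error of 0.12. Every difference below is therefore a value with its error, in a comparison where no single gene passed after adjustment. Of the 55 genes, 9 stayed past the thresholds whichever of the 7 arrays was left out, namely B3galt2, Angptl4, Cldn10, Akap9 and Klhl24 on the higher side and Angptl8, Mid1ip1, Ppp1r3c and Mtfp1 on the lower side.

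**Figure D1:**
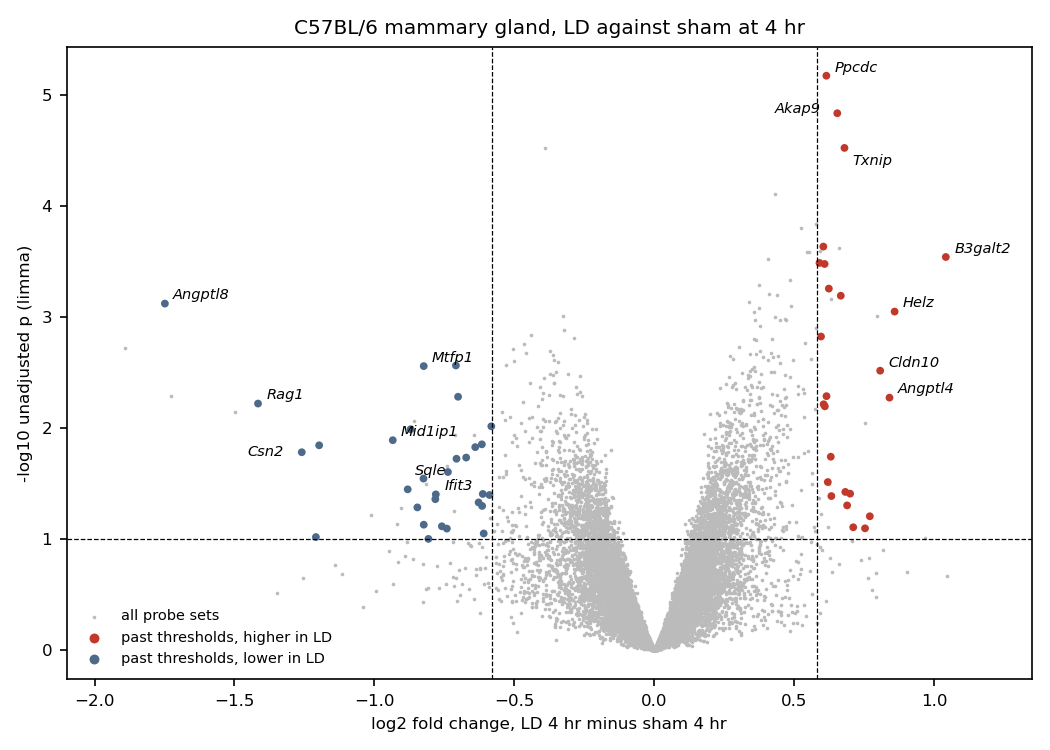
Each point is a probe set, with the log2 fold change of LD over sham at 4 hr on the x axis and −log10 of the unadjusted limma p on the y axis; dashed lines mark 0.58 and p of 0.1, and coloured points mark the 55 genes past both, 1 probe set each. Grey points beyond the lines are further probe sets of these genes or probe sets without a single gene symbol. Angptl8 at −1.75 and B3galt2 at 1.04 stand at the edges, and the smallest p belongs to Ppcdc.

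Angptl8 (GRCm38.p6 chromosome 9, 21835510 to 21837347) had log2 values of 8.14, 7.08, 8.19 and 6.64 in the 4 LD arrays and 9.09, 9.57 and 9.12 in the 3 sham arrays. Every LD array lay below every sham array, and LD replicates 2 and 4 were the lowest. The log2 fold change was −1.75 (standard error 0.44, 95% interval −2.67 to −0.83, unadjusted p = 0.000756, adjusted p = 0.673), with within-row differences of −2.01, −1.37 and −2.48. Mid1ip1 (chromosome X, 10717365 to 10719702), whose product promotes the polymerization of acetyl-CoA carboxylase and with it fatty acid synthesis, had 9.62, 9.68, 9.78 and 8.82 in LD and 10.17, 10.90 and 10.15 in sham. Its groups did not overlap either, with LD replicate 4 lowest (log2 fold change −0.93, standard error 0.34, unadjusted p = 0.0128). Mtfp1, a mitochondrial fission protein, had 6.81, 6.38, 6.69 and 6.26 in LD and 7.24, 7.66 and 7.17 in sham, and its within-row differences of −0.86, −0.98 and −0.91 were close to each other (log2 fold change −0.82, standard error 0.24). Ppp1r3c, a targeting subunit that brings protein phosphatase 1 to glycogen, and Hk2, the insulin-responsive hexokinase, were picked out after their values were seen. Ppp1r3c had 9.66, 8.51, 9.27 and 8.80 in LD and 9.62, 10.06 and 10.12 in sham, where only LD replicate 1 reached the sham range (log2 fold change −0.87, standard error 0.31). Hk2 was −0.59 (standard error 0.27), with overlapping arrays.

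On the higher side, Txnip (chromosome 3, 96557957 to 96561857), the thioredoxin-interacting protein that limits glucose uptake, had log2 values of 11.25, 11.10, 10.85 and 11.17 in LD and 10.66, 10.11 and 10.46 in sham. All LD arrays were above all sham arrays. The log2 fold change was 0.68 (standard error 0.13, 95% interval 0.41 to 0.95, unadjusted p = 3e-05, adjusted p = 0.17), its other probe set gave 0.59, and the within-row differences were 0.43, 0.74 and 0.71. Angptl4 (chromosome 17, 33774900 to 33781575), a fasting-induced inhibitor of lipoprotein lipase and a target of PPAR factors and of the glucocorticoid receptor, had 10.96, 10.65, 10.40 and 11.47 in LD and 10.35, 9.56 and 10.18 in sham, with LD replicate 3 only just above sham replicate 1. It gave 0.84 (standard error 0.27, unadjusted p = 0.00531), while its second probe set gave 0.09. Klhl24, a ubiquitin ligase adaptor, and Lpin2, a phosphatidate phosphatase, were again picked after their values were seen. Klhl24 had 7.62, 7.52, 7.41 and 7.62 in LD and 6.92, 6.90 and 6.98 in sham, a spread within each group far under the distance between them (0.61, standard error 0.14). Lpin2 was also 0.61 (standard error 0.20) without overlap, and all 3 of its probe sets were above 0. The glucocorticoid response list had 13 of 20 genes above 0, where 49.1% of all genes were. Its median was 0.02, with 1 gene past the thresholds. Without sham replicate 2 the list had 7 of 20 genes above 0 and a median of −0.18. LD replicates 1 to 4 lay above the sham mean for 18, 5, 6 and 10 of its genes. A part of feeding state or hormones in the genes of this paragraph and the one before was not tested.

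**Figure D2:**
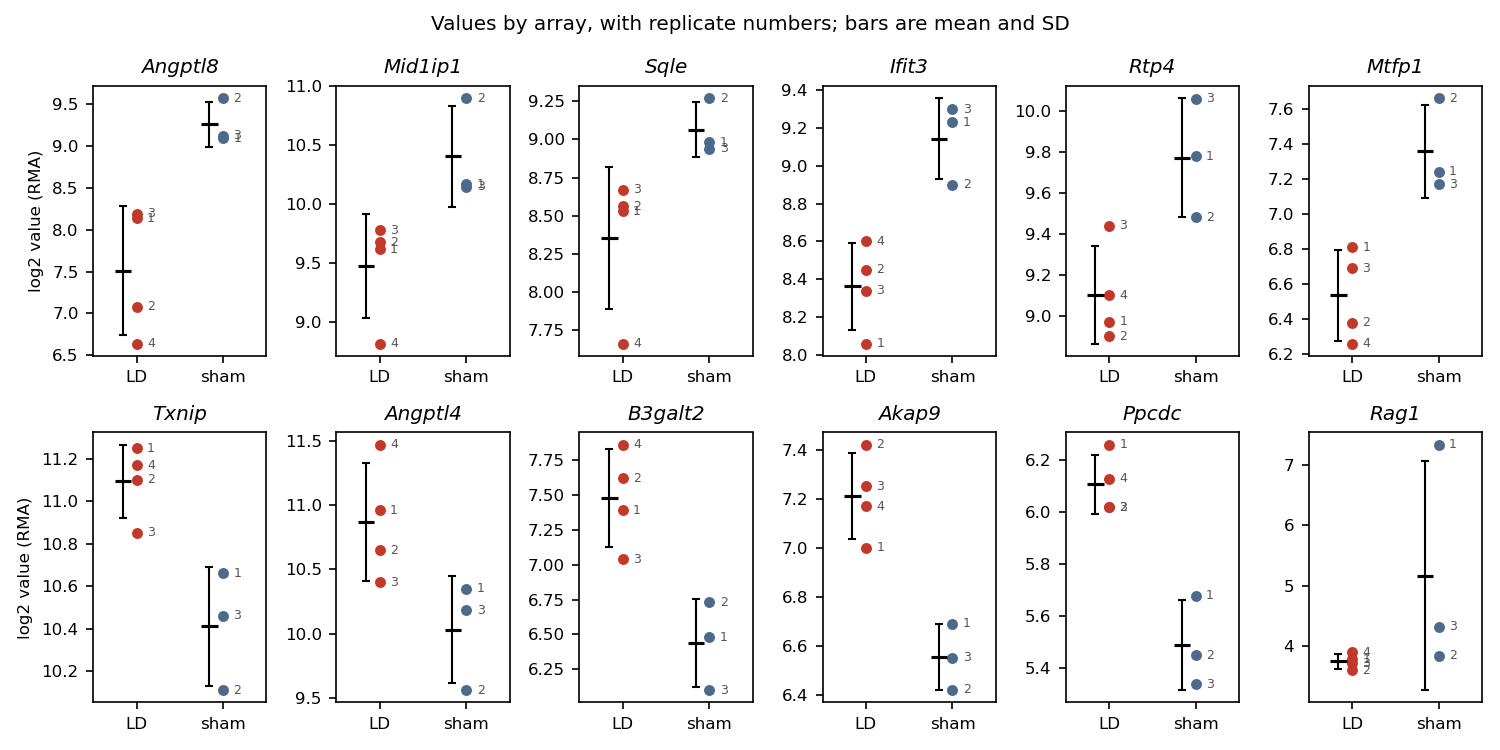
Log2 values of 12 genes by array, LD left of sham, with the replicate number beside each point and the mean and SD as bars; each panel has its own y axis. In 11 genes no LD array lies within the sham range, while the Rag1 difference comes from sham replicate 1 at 7.33 against 3.84 and 4.32 in the other sham arrays.

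The enzymes of cholesterol synthesis were lower together in LD, with values that overlapped sham in all genes but 1. All 17 measured genes of the list had a log2 fold change below 0, where 50.9% of all genes did, and their median was −0.36 against −0.00 over all genes. Sqle, squalene epoxidase, a rate-limiting step of the sterol branch, had 8.53, 8.56, 8.67 and 7.66 in LD and 8.98, 9.27 and 8.94 in sham, without overlap (log2 fold change −0.71, standard error 0.28, unadjusted p = 0.0188, adjusted p = 0.972). Msmo1, the sterol C4 methyl oxidase, was −0.48 (standard error 0.22). Mvd, which makes isopentenyl pyrophosphate, was −0.78 (standard error 0.36), and Cyp51, which removes the C14 methyl group of lanosterol, was −0.90 (standard error 0.44) by its brightest probe set. Of the 17 genes 3 were past the study's thresholds by the brightest probe set and 3 had an unadjusted p under 0.05, where 0.229% and 2.08% of all genes were lower by these rules. The transcription factor Srebf2, which drives this pathway, was −0.18 (standard error 0.10). Per array, the median difference of the list from the sham mean was −0.18, −0.47, −0.09 and −0.90 in LD replicates 1 to 4, and within rows D, E and F the LD array was lower for 15 of 17 genes each, with medians of −0.37, −0.42 and −0.80. Without LD replicate 4 the median was −0.18 and 16 of 17 genes were below 0, and without sham replicate 2 it was −0.20 with 14 genes below 0. HD against the same 3 sham arrays had 15 of 17 genes below 0 with a median of −0.35. For LD minus HD the median was −0.01.

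Fatty acid synthesis genes followed the same pattern with more weight on a single array. All 19 measured lipogenesis genes were below 0, with a median of −0.34, but 0 of them had an unadjusted p under 0.05 or were past the thresholds. HD against the same 3 sham arrays had 17 of 19 genes below 0 with a median of −0.21. For LD minus HD the median was −0.17. Me1, the malic enzyme that supplies NADPH, had 12.79, 12.78, 12.87 and 11.03 in LD and 13.15, 12.97 and 12.75 in sham, and Elovl6, a fatty acid elongase, had 12.12, 12.17, 12.42 and 9.69 in LD and 12.47, 12.44 and 11.98 in sham. In both genes LD replicate 4 lay far below all other arrays, while the other 3 LD arrays were within the sham range. The log2 fold changes were −0.59 (standard error 0.50) and −0.69 (standard error 0.68). Without LD replicate 4 the median of the list was −0.08. The white adipocyte list, by contrast, had 9 of 15 genes above 0 with a median of 0.03, and LD replicate 4 was not low for it (list score 0.21, against 0.20, −0.13 and −0.18 in the other LD arrays and −0.10, 0.06 and −0.05 in sham; a list score is the mean log2 value over a list minus that of the median C57BL/6 MG array). Brown adipocyte genes, with Ucp1 the uncoupling protein among them, varied most from mouse to mouse: their scores were 1.67, −0.17, 0.00 and 0.73 in LD and 1.39, 2.64 and −0.30 in sham, and their median difference of −0.72 rests on arrays that overlap throughout, with −1.55 without sham replicate 3 and 0.26 with the plate column in the fit. Genes of oxidative phosphorylation were below 0 in 33 of 38, but by a median of only −0.07, and without sham replicate 2, the array highest in brown adipocyte genes, that median was 0.00.

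Interferon-induced genes were mostly lower in LD. Of 29 measured genes 25 were below 0, with a median of −0.24, and 6 of them had all LD arrays below all sham arrays, against 2.53% of all genes. Stat2, a subunit of the factor that carries the type I interferon signal, had 5.49, 5.96, 5.88 and 5.90 in LD and 6.32, 6.54 and 6.17 in sham (log2 fold change −0.53, standard error 0.22, unadjusted p = 0.0258). Ifit3, an antiviral protein, had 8.06, 8.45, 8.34 and 8.60 in LD and 9.23, 8.90 and 9.30 in sham (−0.78, standard error 0.36, unadjusted p = 0.0394, adjusted p = 0.984), with within-row differences of −0.78, −0.56 and −0.70. Zbp1, a sensor of Z-form nucleic acid, had 6.24, 6.15, 6.32 and 6.36 in LD and 7.16, 6.68 and 7.24 in sham (−0.76, standard error 0.41). For all of these sham replicate 2 was nearer to the LD arrays than sham replicate 3 was, except for Stat2, where it was the highest. Irf7, the factor that amplifies the type I interferon response, was −0.57 (standard error 0.32) with overlapping arrays, and Rsad2, the antiviral enzyme viperin, was −0.38 (standard error 0.23) without overlap. Rtp4, a chaperone of taste and opioid receptors that interferon induces, had 8.97, 8.90, 9.44 and 9.10 in LD and 9.78, 9.48 and 10.06 in sham, and was −0.67 (standard error 0.26). List scores were −0.28, −0.11, −0.15 and −0.04 in LD and 0.21, −0.04 and 0.15 in sham, so sham replicate 2 stood beside the highest LD array. Other C57BL/6 MG arrays spanned −0.48 to 0.75. Leave-one-out medians lay between −0.27 and −0.14. Within rows D, E and F the list medians were −0.30, −0.07 and −0.13, with 20, 18 and 21 of 29 genes lower in LD. HD against the same 3 sham arrays had 25 of 29 genes below 0 with a median of −0.22. For LD minus HD the median was −0.04.

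Promoters of 3 genes described above are shown, out of 10 list genes that carry the sequence through which interferon is known to act. The interferon-stimulated response element, known from promoters of interferon-induced genes, was searched on both strands as GAAA, 2 bases of any kind and GAAA, in RefSeq windows of 250 bases before to 50 after the start of each gene (GRCm38.p6). It was found in 10 of the 28 windows of interferon genes, which belong to 22 genes, and in 3.44% of all 32851 windows. A match describes the letters only. The windows are written 5′ to 3′ on the strand of the gene, with the matches in capitals. Ifit3 lies at chr19:34583279-34583578 on the plus strand with 2 matches, Rsad2 at chr12:26456403-26456702 on the minus strand with 1, and Stat2 at chr10:128270248-128270547 on the plus strand with 1.
Ifit3: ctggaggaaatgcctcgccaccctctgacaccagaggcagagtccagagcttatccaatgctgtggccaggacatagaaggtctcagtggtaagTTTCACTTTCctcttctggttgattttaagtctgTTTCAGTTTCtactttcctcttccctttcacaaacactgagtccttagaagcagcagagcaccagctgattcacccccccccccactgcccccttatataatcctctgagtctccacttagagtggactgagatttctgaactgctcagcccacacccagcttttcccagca
Rsad2: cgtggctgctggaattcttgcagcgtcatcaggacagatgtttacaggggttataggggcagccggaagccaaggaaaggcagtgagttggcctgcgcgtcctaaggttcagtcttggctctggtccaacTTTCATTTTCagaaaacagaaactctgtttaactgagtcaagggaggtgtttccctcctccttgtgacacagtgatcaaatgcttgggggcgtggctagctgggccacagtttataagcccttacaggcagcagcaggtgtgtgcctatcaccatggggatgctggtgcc
Stat2: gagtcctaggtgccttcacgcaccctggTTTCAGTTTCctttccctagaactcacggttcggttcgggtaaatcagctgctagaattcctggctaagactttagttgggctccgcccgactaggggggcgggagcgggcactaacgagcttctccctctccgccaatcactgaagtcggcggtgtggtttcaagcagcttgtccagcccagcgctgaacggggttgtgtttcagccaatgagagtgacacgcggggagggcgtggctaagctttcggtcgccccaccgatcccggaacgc
In Ifit3 the matches begin 156 and 122 bases before the start, in Rsad2 120 and in Stat2 222 bases before it. All 3 genes had every LD array below every sham array. The other genes with a match, Cxcl10, Gbp2, Gbp3, Ifih1, Ifit1, Igtp and Irgm1, are not shown. The values of the 3 therefore do not tie the match to lower values. The spelling TCACNCCAC, a form of the sterol regulatory element, was in none of the windows of the 13 cholesterol synthesis genes that have one, and in 1.24% of all windows, which says only that these letters are not there.

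Among the genes with the smallest p values, those higher in LD came from several functions. Ppcdc (chromosome 9, 57385095 to 57440157), which makes phosphopantetheine on the way to coenzyme A, had 6.26, 6.02, 6.02 and 6.13 in LD and 5.68, 5.45 and 5.34 in sham (log2 fold change 0.62, standard error 0.10, unadjusted p = 6.71e-06, adjusted p = 0.152), but its second probe set gave −0.01. Akap9 (chromosome 5, 3927736 to 4080204), a scaffold of protein kinase A at the centrosome and Golgi, had 7.0, 7.42, 7.25 and 7.17 in LD and 6.69, 6.42 and 6.55 in sham (0.65, standard error 0.12, adjusted p = 0.165), with within-row differences of 0.72, 0.83 and 0.61. Zfp292, a large zinc finger protein, was smaller in size but the same in all 4 of its probe sets, at 0.43 (standard error 0.09) and 0.29 to 0.34. Stxbp6, which binds SNARE proteins, was 0.58 (standard error 0.12). B3galt2 (chromosome 1, 143640697 to 143649937) had 7.39, 7.62, 7.04 and 7.86 in LD and 6.48, 6.73 and 6.10 in sham, and gave 1.04 (standard error 0.24, unadjusted p = 0.000288, adjusted p = 0.47) with 0.80 at its other probe set. Cldn10, a tight junction protein that forms ion pores, had 6.44, 7.33, 6.81 and 6.37 in LD and 5.73, 6.02 and 6.03 in sham (0.81, standard error 0.24). Helz, an RNA helicase, was 0.86 (standard error 0.22), with sham replicate 2 the lowest array at 5.75. Plxdc2, a membrane protein with a plexin domain, was 0.67 (standard error 0.17) but −0.07 at its second probe set. Lmcd1, a LIM domain protein, was 0.63 (standard error 0.25).

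For Tmprss2, a transmembrane serine protease of luminal cells, Vti1b, a SNARE protein, Ppfibp2, a liprin, and Lratd1, the groups did not overlap but the differences of 0.75, 0.70, 0.69 and 0.71 leaned on sham replicate 1. Tmprss2 had 7.66, 7.72, 7.25 and 7.64 in LD and 5.97, 7.25 and 7.22 in sham, so that LD replicate 3 and sham replicate 2 were level at 2 decimals, and without sham replicate 1 it was 0.33. Without that array Vti1b was 0.49, Lratd1 0.52 and Ppfibp2 0.54. With plate column in the fit Lratd1 was −0.25. On the lower side Crabp1, a retinoic acid binding protein, was −0.74 (standard error 0.40), and the genes with the smallest p after Angptl8 were Gzme, Nppa, Nolc1 and Gnat1 at −0.33, −0.32, −0.44 and −0.29. Gzme, a granzyme, Nppa, a heart hormone, and Gnat1, a transducin of the retina, had no log2 value above 4.27 in any of the 7 arrays, near the bottom of the array's range. Nolc1, a nucleolar chaperone, had 5.67, 5.58, 5.79 and 6.10 in LD and 6.18, 6.33 and 6.17 in sham, and was below 0 at all 3 probe sets.

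Several large differences came from a single sham array. Rag1, the recombinase of developing lymphocytes, had 3.78, 3.60, 3.72 and 3.90 in LD and 7.33, 3.84 and 4.32 in sham. Csn2, beta-casein, had 4.47, 3.95, 4.57 and 4.04 in LD and 7.75, 4.25 and 4.54 in sham. Tbata, a thymus, brain and testis gene, had 4.03, 4.03, 4.09 and 3.86 in LD and 6.71, 3.98 and 3.96 in sham, and Prss16, the thymus-specific serine protease, had 4.96, 5.09, 5.69 and 4.63 in LD and 6.52, 5.26 and 5.42 in sham. In each of the 4, which were named after their values were seen, sham replicate 1 was the highest array. Their log2 fold changes of −1.42, −1.26, −0.88 and −0.64 were −0.33, −0.14, 0.03 and −0.25 without sham replicate 1. In the same array the T cell list, with the coreceptor gene Cd8b1 at 5.68 against 4.50 to 4.84 in the other 6 arrays, had its highest score of 0.27 (−0.17 to −0.02 in LD, 0.02 and −0.03 in the other sham arrays). Of the 19 T cell genes 15 were below 0 with a median of −0.17, and −0.08 without that array. The part of such cells in the other sham differences was not tested.

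Markers of other blood cells differed little or overlapped. Of 27 macrophage genes 22 were below 0 with a median of −0.16, but LD replicates 1 and 4 lay above the sham mean for 24 and 18 of them and LD replicates 2 and 3 below it for 23 and 25. The score ranged from −0.59 to 0.32 in LD and from −0.40 to 0.28 in sham, and the median was 0.01 without sham replicate 3. Adgre1, the macrophage surface marker F4/80, had 8.52, 6.88, 7.18 and 7.92 in LD and 7.89, 7.25 and 8.49 in sham (−0.25, standard error 0.33). Trem2, a lipid receptor of macrophages, was −0.24 (standard error 0.16), Gpnmb, a lysosomal glycoprotein of lipid-laden macrophages, −0.23 (standard error 0.34), and Irf8, a factor of the myeloid lineage, −0.31 (standard error 0.37). Mmp12, the macrophage elastase, was −0.00 (standard error 0.23). Fcgr1 was the 1 gene of the macrophage list past the study's thresholds, at −0.81. With 1 array left out it ran from −1.15 to −0.49, and it was 0.05 with plate column in the fit. Of 13 neutrophil genes 11 were below 0 with a median of −0.12, and Csf3r, the receptor of granulocyte colony-stimulating factor, had 4.86, 4.58, 4.81 and 4.63 in LD and 5.25, 5.01 and 5.01 in sham (−0.37, standard error 0.11, unadjusted p = 0.00203). Much of this list was dim, with LD means of 3.93, 4.10, 4.33 and 4.28 for Mmp8, Cxcr2, Mpo and Camp. Its brightest members, Lcn2 and Ltf, were −0.02 each (standard errors 0.20 and 0.52). Among natural killer genes Prf1, perforin, was higher in every LD array (0.29, standard error 0.09) and Klrb1c, the NK1.1 receptor, lower in every LD array (−0.26, standard error 0.10), and Gzmb was −0.16 (standard error 0.11). Of 11 mast cell genes 10 were below 0 with a median of −0.11 and overlapping scores, −0.73 to 0.05 in LD and −0.33 to 0.18 in sham. B cell genes had a median of −0.01 and MHC class II genes one of −0.21, with 6 of 9 below 0. Of 31 cytokine and chemokine genes 23 were below 0 with a median of −0.07, and the monocyte chemokine Ccl2 was −0.55 (standard error 0.27).

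**Figure D3:**
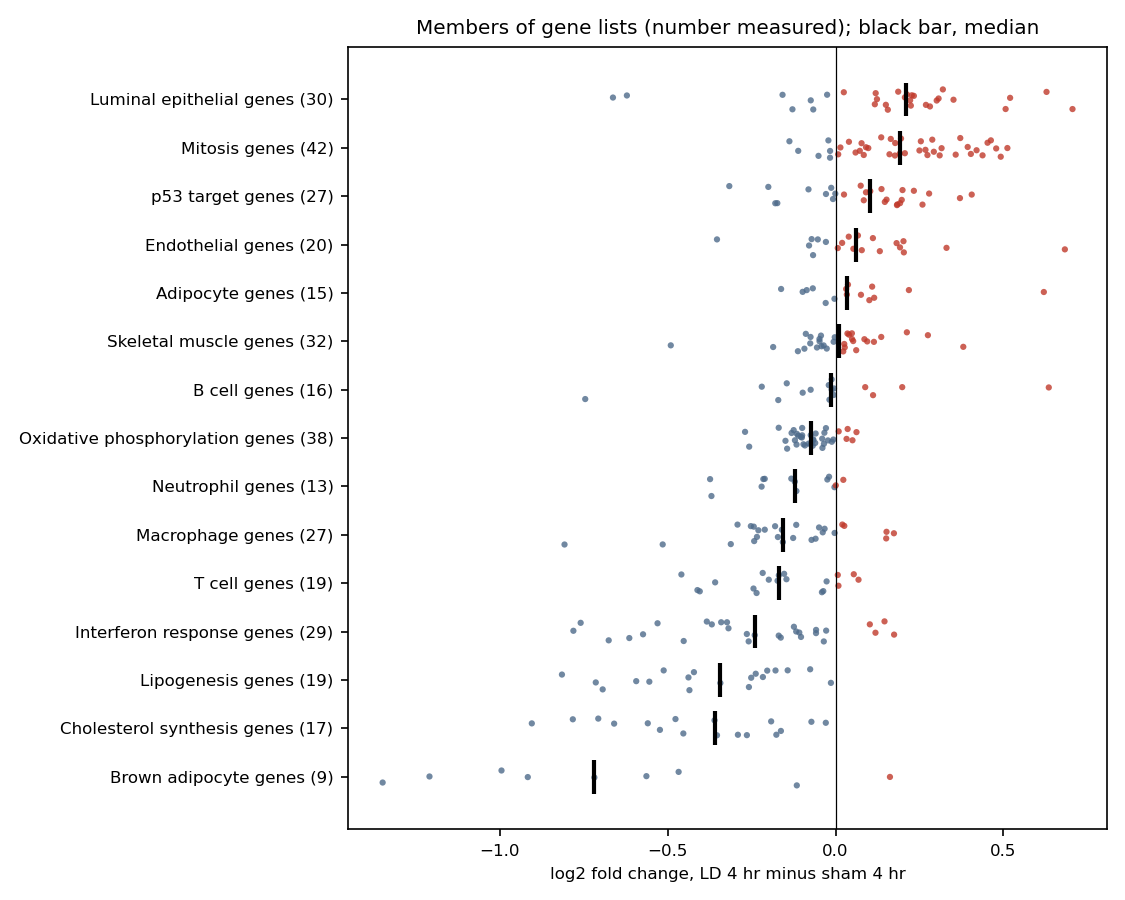
Log2 fold changes of LD over sham at 4 hr for the members of 15 gene lists, each gene by its brightest probe set, with the number measured in parentheses and the median as a black bar; red points are above 0 and blue ones below. All cholesterol synthesis and lipogenesis genes lie below 0, 25 of 29 interferon genes do, and the luminal and mitosis lists lie mostly above 0.

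The p53 targets were close to sham in LD. Of 27 measured targets 18 were above 0 in LD with a median of 0.10, and 0 were past the study's thresholds. Mdm2 had 8.20, 8.50, 8.25 and 8.19 in LD and 8.10, 8.16 and 8.14 in sham, a small difference without overlap (0.15, standard error 0.11, 95% interval −0.08 to 0.38). Ccng1, cyclin G1, was −0.01 with an interval of −0.32 to 0.29, and Zmat3, an RNA-binding target, was 0.09 with −0.22 to 0.40. Cdkn1a, the cell cycle inhibitor p21, had 10.01, 7.80, 8.04 and 8.12 in LD and 8.28, 7.91 and 8.46 in sham, so that LD replicate 1 alone was high and the other 3 LD arrays were within or under the sham range (0.28, 95% interval −0.59 to 1.15). That array also had the highest score of the glucocorticoid response list, 0.56 against −0.27, −0.22 and 0.01 in the other LD arrays and 0.12, −0.36 and 0.12 in sham. A link between that score and the Cdkn1a value was not tested. Among the highest values of the list in LD were Trp53inp1, a p53-induced nuclear protein (0.41, interval −0.02 to 0.83), and Plk2, a polo-like kinase (0.37, interval −0.04 to 0.78). Ercc5, a nuclease of nucleotide excision repair, was the only target with an unadjusted p under 0.05 (0.26, standard error 0.12), where 2.51% of all genes were higher by that rule.

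LD was also contrasted directly with HD. The sham means do not enter this contrast, but the spread comes from the fit over all 23 C57BL/6 MG arrays, and with the 8 LD and HD arrays alone 44 genes passed, 9 p53 targets and 4 MHC class II genes among them. In limma 11 of the 27 targets were lower in LD at an adjusted p under 0.05, against 0.508% of all genes, and 0 were higher. Aen, an apoptosis-enhancing nuclease, had 7.04, 6.33, 6.37 and 6.53 in LD and 8.72, 8.48, 8.58 and 8.56 in HD (log2 difference −2.02, standard error 0.18, adjusted p = 1.92e-06). Mdm2 had 9.28, 9.22, 9.29 and 9.36 in HD and differed by −1.0 (standard error 0.10, adjusted p = 1.53e-05), and Cdkn1a, with no HD array below 10.51, differed by −2.26 (standard error 0.39, adjusted p = 0.00448). Ccng1, Zmat3 and the sestrin Sesn2 differed by −0.98, −1.28 and −0.90. Among the genes higher in LD than in HD were MHC class II genes, the antigen presentation molecules of macrophages, dendritic cells and B cells. Of these 5 of 9 were higher in LD at an adjusted p under 0.05, against 1.07% of all genes, among them H2-Ab1 with 9.75, 9.51, 8.91 and 9.77 in LD and 7.86, 7.68, 8.06 and 8.26 in HD (1.52, standard error 0.19, adjusted p = 0.000181). Markers of other cell types moved with the same contrast: 29 of 30 luminal genes were above 0 with a median of 0.77, 4 of them at an adjusted p under 0.05 (Elf5, Cd24a, Spint2 and Kit), and 5 of 6 erythroid genes were below 0 with a median of −0.30, 2 of them at an adjusted p under 0.05. Luminal scores were −0.51 to 0.58 in LD and −0.84 to −0.26 in HD, and their part in the dose difference was not tested. In all, 241 genes (2.04%) passed, 160 higher (1.36%) and 81 lower (0.686%) in LD. Leaving out 1 array gave 48 genes without LD replicate 2, 108 without LD replicate 3 and 516 without LD replicate 1, and 52, 104, 122 and 538 without HD replicates 1 to 4, with 9 to 12 p53 targets and 5 MHC class II genes in each. With plate column as a covariate 5 p53 targets and 2 MHC class II genes passed. After each array was centred on its own median, which moved the median over all probe sets by −0.10, the split was 119 higher and 479 lower.

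**Figure D4:**
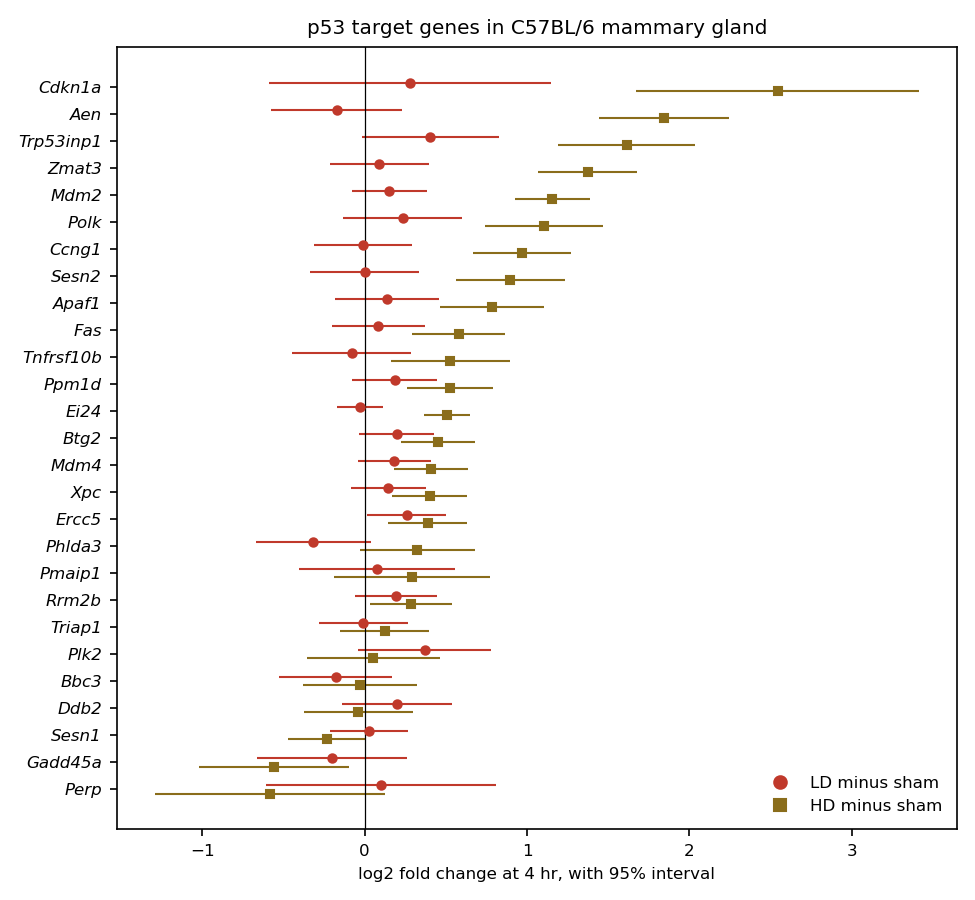
Log2 fold changes of 27 p53 target genes at 4 hr in C57BL/6 MG with 95% intervals from limma, LD minus sham (red circles) above HD minus sham (brown squares) for each gene; both use the same 3 sham arrays. All but 1 of the LD intervals include 0, while Cdkn1a, Aen, Trp53inp1, Zmat3, Mdm2 and Polk are above 1 in HD.

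The DNA repair list had a median of 0.05, with Polb, the polymerase of base excision repair, at 0.36 (standard error 0.14) and Ercc2, a helicase of excision repair, at −0.27 (standard error 0.12). In the replication list, 20 of 32 were below 0, and Mcm3, a subunit of the replicative helicase, had 4.67, 5.20, 4.58 and 5.18 in LD and 5.21, 5.39 and 5.46 in sham (−0.45, standard error 0.21). Cdt1, which loads that helicase, was −0.55 (standard error 0.38). Of 42 mitosis genes 36 were above 0 with a median of 0.19, yet 0 had an unadjusted p under 0.05, and the arrays differed more within groups than between them: the scores were −0.18, 0.76, 1.57 and 0.26 in LD and −0.09, 0.14 and 1.14 in sham. Within rows D, E and F the median was 0.83, 1.41 and −0.82, and it was −0.11 without LD replicate 3. Kif11, the spindle kinesin, was 0.27 (standard error 0.45).

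Epithelial genes varied widely between arrays of the same group. The luminal list had 23 of 30 genes above 0 with a median of 0.21, while its scores were −0.51, 0.58, 0.35 and −0.05 in LD and −0.17, 0.04 and −0.05 in sham, so that LD held both the lowest and the highest array. The myoepithelial list scored −0.60, 0.21, 0.41 and −0.18 in LD and 0.27, −0.21 and 0.05 in sham, lowest in the same LD replicate 1, and its median was −0.03. Esr1, the estrogen receptor, had 5.19, 5.71, 5.09 and 5.14 in LD and 4.93, 5.0 and 4.88 in sham, without overlap (0.35, standard error 0.17). Elf5, the factor of the milk-producing lineage, had 7.49, 9.17, 10.06 and 7.81 in LD and 10.11, 8.44 and 9.21 in sham (−0.62, standard error 0.45). Endothelial genes had 14 of 20 above 0 with a median of 0.06, among them the junction gene Cldn5 at 0.68 (standard error 0.31) and the receptor Tie1 at 0.33 (standard error 0.15), highest in LD replicates 1 and 4 for both. Extracellular matrix, TGF beta response, heat shock, ER stress, hypoxia, circadian and skeletal muscle lists had medians between −0.03 and 0.02. In the immediate early list Fosl2, an AP-1 subunit, and Nr4a2, an orphan nuclear receptor, were lower in every LD array (−0.36 and −0.19, standard errors 0.14 and 0.08), in a list with a median of −0.00.

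**Figure D5:**
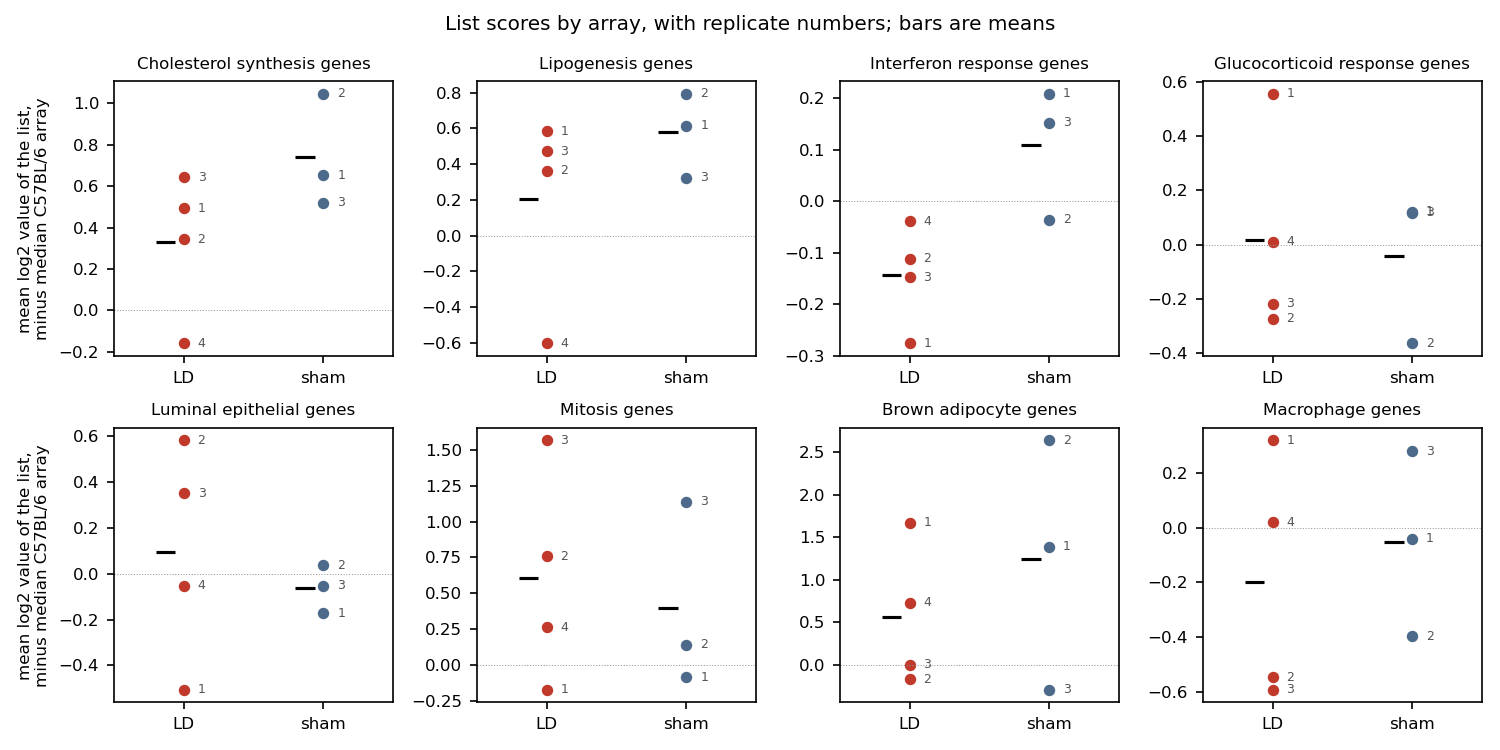
List scores of the 7 arrays, LD left of sham, for 8 gene lists, as the mean log2 value over the list minus that of the median C57BL/6 MG array; numbers are replicates and bars are means, and each panel has its own y axis. Only the interferon panel has all LD arrays at or below the lowest sham array (−0.04 in both), LD replicate 4 is lowest for both lipid lists, and the luminal and mitosis scores spread as widely within LD as across groups.

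The 17 genes taken from the study, Fxyd2 from its supplement and the others from its main text, overlapped between LD and sham arrays in C57BL/6. They are a part of those it lists for the early LD response, and 0 were past the thresholds. Others that it lists were past them, among them Tmprss2 and Mvd, given above, and Galnt2, a mucin-type glycosyltransferase (−0.71), which was named after its values were seen. Hif1a, the oxygen-sensitive transcription factor, was −0.01 (standard error 0.26), Stc2, a secreted calcium regulator, was 0.47 (standard error 0.46), and Rab20, a small GTPase, was 0.13 (standard error 0.18). The epithelial genes Cd24a, Krt19 and Wnt4 were 0.22, 0.23 and 0.30 with standard errors of 0.23, 0.27 and 0.27. Gata3, Runx1, Msx2 and Stat5a, factors of mammary development, were 0.21, 0.02, 0.06 and −0.02. Ido1, the tryptophan-degrading enzyme, had 9.40, 11.07, 8.85 and 10.49 in LD and 8.29, 10.36 and 9.45 in sham (0.58, standard error 0.99), and Fxyd2, a regulator of the sodium pump, was 0.04 (standard error 0.42). Of further genes of own choice, Slc5a5, the sodium/iodide symporter, was −0.13 (standard error 0.41), Krt7 0.31 (standard error 0.38), Fbn2, a fibrillin, −0.54 (standard error 0.44) and Vcan, versican, −0.01 (standard error 0.50).

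The C57BL/6 and BALB/c comparisons share no array, so their values for the same genes can be set side by side. Of the 55 genes past the thresholds in C57BL/6, 46 had the same sign in BALB/c LD against its own sham at 4 hr (83.6%), where 58.6% of all genes did, and the log2 fold changes of all genes correlated at 0.303 across 11807 genes, which are not independent replicates. The shares were 27 of 30 for the lower genes and 19 of 25 for the higher ones. Angptl8 was −1.03 in BALB/c, Mid1ip1 −0.70, Sqle −0.36, Txnip 0.35, Angptl4 0.48 and Helz 0.67, while Akap9 was −0.11, Ppcdc −0.02, Klhl24 −0.00 and Mtfp1 −0.03. The cholesterol synthesis median was −0.28 in BALB/c, the lipogenesis median −0.27, the interferon median −0.11 and the macrophage median −0.54. The LD arrays of both strains stood at the same positions of their plates, C9, D10, E11 and F12, and 2 of the 3 sham arrays did too, D1 and F3, so plate position and treatment coincide in both strains. In the fit of the difference between the strains 0 genes passed an adjusted p under 0.05 by limma (smallest 0.449), and 720 (6.1%) had an unadjusted p under 0.05 by any probe set. Counted by probe set, this was 955 of 22626. For Akap9, named for its small p in the C57BL/6 comparison, the C57BL/6 response minus the BALB/c response was 0.77. The same C57BL/6 values enter that contrast, so its p is not given. Over the 27 macrophage genes the C57BL/6 minus BALB/c difference had a median of 0.36, against 0.00 over all genes. Of these genes, each by its brightest probe set, 3 were above 0 at an unadjusted p under 0.05 by limma and 0 were below. Over all 11807 genes 433 were above 0 at that p, counted by any probe set, which is a looser rule. Markers of 1 cell type are not independent, and the C57BL/6 macrophage median was 0.01 without sham replicate 3.

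At 1 month after the last LD fraction, against the sham arrays of that time, the leading genes did not have the values of 4 hr. Angptl8 was 1.0, Mid1ip1 0.27, Ifit3 0.81, Txnip −0.10 and Akap9 0.01. The medians of the lists were 0.03 for cholesterol synthesis, 0.23 for lipogenesis and 0.31 for interferon genes. Of the 55 genes, 27 had the same sign at both times. The difference between the times was tested by limma. At an adjusted p under 0.05 it gave 0 genes (smallest 0.27), and 1495 (12.7%) had an unadjusted p under 0.05 by any probe set. Counted by probe set, this was 2192 of 22626. For Angptl8, Txnip and Ifit3 the 4 hr minus 1 month values were −2.75, 0.78 and −1.59. These 3 were picked for their 4 hr values, which enter this contrast, so their p is not given.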

How the data were processed

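RNA of whole mammary gland was hybridized to Affymetrix HT_MG-430A arrays. The authors normalized the arrays by RMA and deposited the values on the log2 scale (their processing notes name RMA and limma, with versions not given in the sources used here). RMA pulls low values toward a common background, which narrows the differences of dim probe sets. Of 22626 probe sets 18003 had 1 gene symbol and 287 had several, and the 4336 with none were tested without being named. Symbols follow RefSeq of GRCm38.p6, and Bax was not analysed here.

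Group means were contrasted in limma 3.58.1 (R 4.3.3) within 1 fit over the 23 C57BL/6 MG arrays, with Benjamini-Hochberg adjustment over every probe set, or over the 43 MG arrays for the strain difference. Counts take any probe set of a gene, so that a gene can count on both sides, and lists take the brightest one. The study's p was read as unadjusted. The named genes are 17 that the paper gives for the early LD response of BALB/c (Fxyd2 in its supplement, the others in its main text), and some of own choice. The 12 highest and 12 lowest past the thresholds without overlap were added (only 8 were lower). So were the 5 smallest p on either side and up to 4 of each described list by p. Elovl6, Rsad2, Srebf2, Ucp1, Aen, Zmat3, Sesn2, Polk, Spint2 and Kit, and those the text marks, were named after their values were seen. Members, lists and tests were chosen with earlier results of these data known, and lists are described without a test. The labels number the arrays as replicates, 1 mouse each per the methods, and their number limits the precision. Fits were tested on simulated data. Alternatives were other normalizations, filters, blocks, covariates, array weights, and leaving out each array. Figures were drawn with matplotlib 3.10.9.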

Additional observations from a re-analysis of the deposited data

Results flagged for a closer look

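In 17 of 239 groups of 4 LD arrays (named genes and list scores), 1 array lay apart from the other 3 by Dixon's criterion, which chance does in about 1 group in 20. LD replicate 4 was the lone array for Mid1ip1 (8.82), Sqle (7.66), Cyp51 (6.32), Me1 (11.03), Trp53inp1 (8.96) and Lalba (3.96) on the low side and for Helz (7.49), Car3 (14.11) and Lum (12.27) on the high side, as log2 values. LD replicate 1 was the lone array for Cdkn1a (10.01), Hspb8 (9.26) and Plxdc2 (6.17) on the high side and for Lratd1 (6.24) on the low side, and it had a skeletal muscle list score of 0.05 against −0.08 in the other 3. LD replicate 2 was high for Esr1 (5.71) and Krtap5-2 (4.72), and LD replicate 3 low for Stxbp6 (5.95).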

How the results depend on the processing

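The 55 genes past the study's thresholds became 117 with plate row as a block (39 of the 55 shared) and 1066 with plate column as a covariate (22 shared, 685 higher and 382 lower), 6 at a log2 fold change above 1 and 22 at an unadjusted p under 0.01, and leaving out 1 array gave 48 to 110. Plate column and treatment overlap almost wholly, so that fit leaves little to estimate the difference from. The 0 genes at an adjusted p under 0.05 were 0 to 1 with 1 array left out, the 1 without sham replicate 1, and likewise 0 to 1 for the difference between the times. The 791 genes at an unadjusted p under 0.05 were 422 when only probe sets with a mean log2 value of at least 6 were kept, which tests fewer genes. The 241 genes of LD against HD were 44 with only the arrays compared, 65 with plate row as a block, 17 with plate column, 598 after median centring and 48 to 538 with 1 array left out. The share higher in LD was 66.4% as reported, 43.2%, 41.2% and 19.9% with only the arrays compared, plate column and median centring, 45.8% after quantile normalization and 77.0% with the filter at 6. Signs turned under plate column for Lratd1 (−0.25), Hk2 (0.13), Elovl3 (0.26), Fcgr1 (0.050), Tbata (0.39) and, outside the named genes, Tuba8 (0.51). Without sham replicate 1 Tbata was 0.031, and its leave-one-out values ran from −1.34 to 0.031. The cause was not tested. Of 36 named genes past the thresholds, 36 stayed past under quantile normalization or median centring, 26 with plate row as a block and 23 without sham replicate 1. The replicate block gave 51 genes past the thresholds (44 shared), and the LD and sham arrays of the same number had correlations of deviations of −0.01, −0.01 and 0.06, so the numbers do not pair the arrays. The number of arrays, 4 and 3, limits what can be told apart.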

Other observations

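Among the 18 probe sets past the study's thresholds without a single gene symbol, the 3 lowest shared a pattern. The first had log2 values of 5.58, 6.63, 5.89 and 5.44 in LD and 9.16, 6.95 and 7.22 in sham. The second had 6.48, 7.61, 6.82 and 5.65 in LD and 9.67, 7.63 and 7.81 in sham, and the third had 5.51, 6.06, 5.39 and 5.06 in LD and 8.23, 6.5 and 6.28 in sham. In all 3 the LD arrays lay below the sham arrays and sham replicate 1 was the highest, as it was for Rag1 and Prss16. Their genes were not analysed here.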
